A study of Mus musculus with 4 samples.

Results

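The Krüppel-like factors (KLFs) are zinc finger transcription factors, and 10 of the 19353 genes in the count table were examined here: Klf2, Klf3, Klf4, Klf5, Klf6, Klf7, Klf9, Klf10, Klf13 and Klf15. Their rows were found by gene symbol, and these 10 were chosen with earlier results of these data known. Other KLF genes in the count table are described further below. The counts came from muscle stem cells (MuSCs) of the plantaris muscle. In 4 libraries (2 sham, 2 tenotomy), the transcripts of 100 sorted cells per tube were counted by CEL-Seq2, which reads the poly(A) end of a transcript and tags each captured molecule with a unique molecular identifier (UMI). In the tenotomy group the plantaris was overloaded for 4 days by cutting the distal tendons of the gastrocnemius and soleus, and in the sham group the skin was opened without cutting the tendons. All mice carried Pax7-CreERT2 and Rosa-YFP and had received tamoxifen, so that cells expressing Pax7 at that time, and their progeny, were marked by YFP and sorted by it after collagenase digestion. The sources used here give neither the age of these mice nor whether 1 mouse or several stood behind each group, so p-values measure the spread between these libraries, which may be technical. In other experiments of the paper the sham muscle was that of the opposite leg. Whether sham and tenotomy libraries here shared mice is not stated, and the main test used no pairing.

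KLFs bind GC-rich and CACCC sequences through zinc fingers near the C-terminus, which they share with the Sp factors. Their N-terminal parts differ and recruit coactivators or corepressors, so that members can act in opposite directions on similar sites. Many KLFs respond quickly to hormones, growth factors, mechanical stimuli or tissue injury, and several are known from muscle: Klf5 in myoblast differentiation, Klf2 and Klf4 in myoblast fusion downstream of ERK5, and Klf15 in the metabolism of muscle fibers.

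Sequencing gave 269683 and 260488 UMIs for sham and 387955 and 483528 for tenotomy, which is 2697 and 2605 UMIs per cell against 3880 and 4835. The 10 KLF genes together gave 854 and 809 UMIs in the sham libraries and 957 and 1117 in the tenotomy libraries. This was 0.317% (95% Wilson interval 0.296% to 0.339%) and 0.311% (0.290% to 0.333%) of all UMIs in sham, and 0.247% (0.232% to 0.263%) and 0.231% (0.218% to 0.245%) after tenotomy, with intervals that cover counting error only. Tubes from overloaded muscle therefore gave more KLF UMIs, which made up a smaller share of all UMIs. Whether the tubes differed in RNA content, capture or sequencing depth was not tested. Levels below are in CPM (UMI counts divided by the TMM-scaled library size and brought to a common total), unless UMIs are named, and 1 UMI was worth between 2.03 CPM in the deepest library and 4.53 CPM in the shallowest. In this unit the summed KLF level was 3691 ± 37.1 (mean ± SD, n = 2) in sham and 2375 ± 160 (n = 2) after tenotomy. In tubes of pooled cells, fewer cells with a transcript and less of it per cell cannot be told apart.

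The identity of the sorted cells was checked by markers. All 11 MuSC markers examined were detected in both groups, led by Sdc4 with 422 and 284 UMIs in sham against 375 and 345 after tenotomy, and the MuSC transcription factor Pax7 had 118 and 107 against 108 and 137. In the test described below 6 of the 11 were lower after tenotomy, 2 were higher and 3 did not pass, where 26.3% of all genes were lower and 25.8% higher, and per tube 3 were lower (4.58% of all genes) and 5 higher (62%). Pax7 was among the 6 that were lower (log2 fold change -0.84, edgeR adjusted p = 0.000635). With cyclic loess offsets 5 of the MuSC markers were higher (21.3% of all genes) and 3 lower (21.5%). Leukocyte markers summed to 3 and 5 UMIs in sham and to 71 and 165 after tenotomy, 8 of 11 being at 0 in both sham libraries. The most abundant was the lysozyme gene Lyz2, with 0 and 0 against 17 and 38, and the defining marker Ptprc (CD45) had 0 and 1 against 1 and 4. Endothelial markers summed to 21 and 16 against 50 and 55, led by Tek with 10 and 12 against 5 and 11, with Cldn5 and Egfl7 at 0 in sham. Tek was the only gene of this list tested and was lower (-1.41, edgeR adjusted p = 0.0154), as were 26.3% of all genes. It entered the test through the sham libraries alone, and it did not pass in DESeq2 (adjusted p = 0.216) or per tube (0.451). Mural markers summed to 177 and 153 against 458 and 674, led by Acta2 (115 and 109 against 356 and 493), and Myh11 was at 0 in every library but 1. Of the 3 mural markers tested, 2 were higher (25.8% of all genes) and 1 was lower (26.3%). Rgs5, 1 of the 2 that were higher, had 13 and 4 UMIs in sham against 38 and 86. Rgs5 entered the test only with the tenotomy libraries, so that this count is a description. The lower gene was Tagln (-0.61, edgeR adjusted p = 0.0453), which did not pass in DESeq2 (adjusted p = 0.324) or with library totals alone (0.268). Fibro-adipogenic markers summed to 1243 and 1136 against 1435 and 1671, led by Col3a1 (508 and 461 against 618 and 683). Their defining marker Pdgfra was at 0 in both sham libraries and in 1 of the 2 tenotomy libraries. Of the same list Ly6a (Sca-1), which endothelial cells also carry, had 1 and 0 UMIs against 22 and 41. Of the 6 genes of this list that were tested, 4 were lower (26.3% of all genes) and 1 was higher, Ly6a, which entered the test through the tenotomy libraries alone. Per tube 4 were higher (62% of all genes) and 1 lower (4.58%), and with cyclic loess offsets 3 were higher (21.3%) and 1 lower (21.5%). The sums of all 4 of these marker lists were thus higher in UMIs after tenotomy. In CPM, the unit used for KLF levels below, the fibro-adipogenic sum was lower instead, at 5411 and 5146 against 3731 and 3384, while the leukocyte sum (13.1 and 22.7 against 185 and 334), the endothelial sum (91.4 and 72.5 against 130.0 and 111) and the mural sum (770.4 and 693 against 1191 and 1365) were higher. These marker sums thus moved with the surgery. Whether their UMIs came from other cell types was not tested, nor was their part in the KLF values below.

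Of the 10 genes, 9 had enough UMIs to be tested between tenotomy and sham, and 7 of these passed an adjusted p of 0.1 in the quasi-likelihood test of edgeR, with p-values adjusted by Benjamini and Hochberg's method over all 7228 genes tested. Klf4, Klf9, Klf7 and Klf6 were lower after tenotomy, and Klf5, Klf3 and Klf10 were higher. Over all genes, 52.1% passed in either direction, 25.8% as higher and 26.3% as lower, so that a KLF gene passing the threshold was in itself an ordinary event in this table. The median log2 fold change was -0.35 over the 9 KLF genes and 0.05 over all genes tested. For all 9 genes the CPM of the 2 groups did not overlap, 5 being lower and 4 higher after tenotomy. The same held for 72.9% of all genes tested, 35.4% lower and 37.5% higher.

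**Figure D1:**
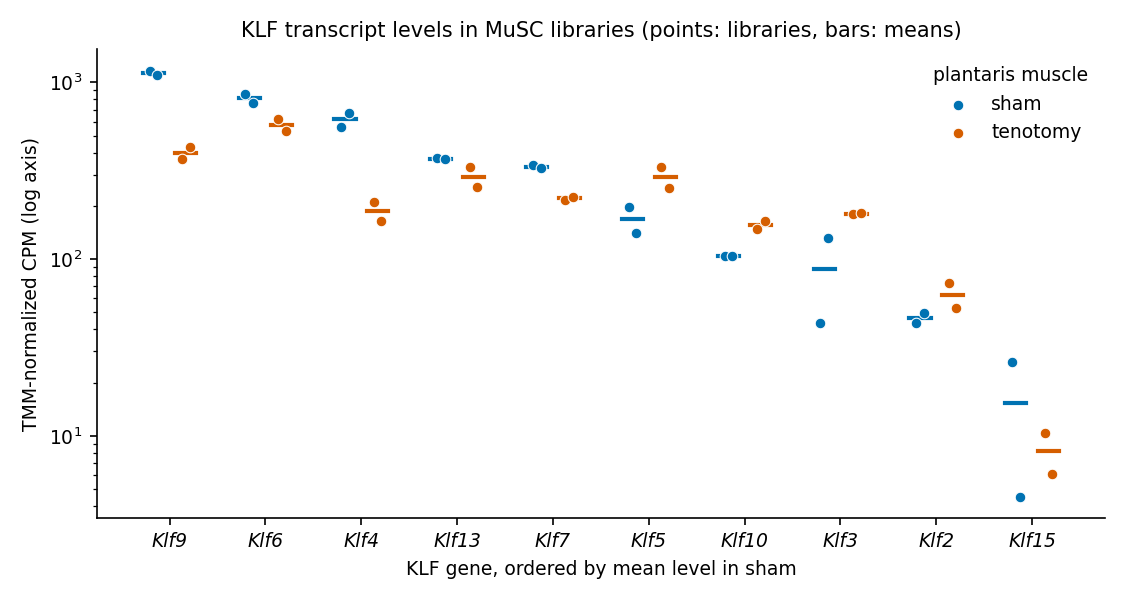
KLF levels in each library, with TMM-scaled CPM on a log axis, 1 point per library, and the mean of the 2 libraries of each group. Klf4 and Klf9 show the widest separation downward, from means of 618 and 1134 CPM in sham to 187 and 398 after tenotomy, while Klf3, Klf5 and Klf10 lie higher after tenotomy.

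Klf4 and Klf9 had the largest falls of the 9 tested members, and the start regions of their genes are shown first because both had fewer UMIs even per tube. Klf4, a regulator of growth arrest and one of the pluripotency factors, lies on chromosome 4 (GRCm38 chr4:55527143-55532466, minus strand, 5 exons in its longest annotated transcript). Klf9, a small factor induced by glucocorticoid and thyroid hormones that works with the corepressor Sin3a, lies on chromosome 19 (chr19:23141226-23168134, plus strand, 2 exons). The stretches below are the 250 bases before the RefSeq start sites in GRCm38.p6, chr4:55532476-55532725 on the minus strand for Klf4 and chr19:23140976-23141225 on the plus strand for Klf9, written 5′ to 3′ along the gene. Capitals mark every match on either strand to the motifs searched: CACCC (KLF sites), GGGCGG (the Sp GC box), TGACGTCA (the cAMP response element), TGANTCA (AP-1), TATAAA (the TATA box), AGAACA (part of the glucocorticoid receptor site), the CArG box of SRF and the MEF2 site, of which the MEF2 site was added after the values were seen.
Klf4: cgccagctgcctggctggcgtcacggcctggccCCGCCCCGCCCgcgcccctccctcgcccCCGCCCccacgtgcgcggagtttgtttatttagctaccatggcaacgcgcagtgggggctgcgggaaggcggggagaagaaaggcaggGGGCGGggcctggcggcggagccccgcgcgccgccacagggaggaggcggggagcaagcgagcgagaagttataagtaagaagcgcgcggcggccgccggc
Klf9: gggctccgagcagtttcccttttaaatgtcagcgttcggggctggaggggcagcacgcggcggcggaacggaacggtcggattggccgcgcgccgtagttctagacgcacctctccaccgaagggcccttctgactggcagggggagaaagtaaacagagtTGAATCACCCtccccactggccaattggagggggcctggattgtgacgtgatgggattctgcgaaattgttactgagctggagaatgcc
With the 50 bases after the start included, the Klf4 region held 4 matches to GGGCGG and 0 to CACCC, and 74.3% of its bases were G or C, against a median of 52.7% over 32851 mouse promoters. The Klf9 region held 1 match to CACCC and 1 to TGANTCA, which share bases, and 0 to GGGCGG, with 63.3% G or C. Among all promoters of this length, 35.7% held GGGCGG, 57.5% CACCC and 7.81% TGANTCA. Entries were found for 8 of the 10 genes. None of the 8 regions held an exact match to TGACGTCA (found in 1.79% of all promoters), TATAAA (13.6%), AGAACA (19.0%) or the CArG box (1.63%). Variants of these letters were not searched, so the absence of such elements is not shown. The region of Klf3 had the most matches of the 8, with 5 to CACCC and 6 to GGGCGG, and that of Klf7 had 3 and 1. These matches describe letters only.

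Klf4 had 129 and 149 UMIs in the sham libraries and 81 and 81 in the tenotomy libraries, or 562 and 675 CPM against 211 and 164. Both tenotomy libraries were below both sham libraries even before scaling, although they were the deeper ones. Klf4 fell by 1.73 on the log2 scale (SE 0.18, 95% interval -2.12 to -1.35), a 3.32-fold lower level (adjusted p = 1.7e-06, edgeR). In sham Klf4 stood above 95.9% of the tested genes, and after tenotomy above 81.1%.

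Klf9 had 268 and 243 UMIs in sham against 141 and 212 after tenotomy, or 1167 and 1101 CPM against 367 and 429. It was the most abundant of the 10 genes in both sham libraries and came behind Klf6 in both tenotomy libraries. Klf9 fell by 1.5 (SE 0.16, 95% interval -1.84 to -1.16), a 2.84-fold lower level (edgeR adjusted p = 1.8e-06). Its share of all KLF UMIs went from 31.4% and 30.0% in sham to 14.7% and 19.0%, and that of Klf4 from 15.1% and 18.4% to 8.46% and 7.25%. Counted as UMIs per tube without scaling, where 4.58% of all genes passed as lower and 62% as higher, Klf4 (-0.78, adjusted p = 0.0046) and Klf9 (-0.53, adjusted p = 0.019) still fell.

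Klf6 and Klf7 also fell, by smaller amounts that depended on the scaling. Klf6, an early responder to tissue injury (chr13:5861482-5870394, plus strand, 4 exons), had 198 and 169 UMIs in sham against 239 and 263 after tenotomy, or 862 and 766 CPM against 621 and 533. The order of the groups was thus opposite in UMIs and in CPM. Relative to the other genes Klf6 fell by 0.50 on the log2 scale (SE 0.16, edgeR adjusted p = 0.0185), but it was higher per tube (0.45, adjusted p = 0.023) and with cyclic loess offsets, which remove a trend of fold change with abundance (0.38, adjusted p = 0.028). It did not pass with library totals alone (adjusted p = 0.227), in DESeq2 (0.105) or without sham replicate 1 (0.225). Klf6 was the most abundant KLF after tenotomy, above 98.7% of the tested genes.

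Klf7, best known from neurons and fat cells (chr1:64029447-64122282, minus strand, 4 exons), had 78 and 72 UMIs in sham against 83 and 111 after tenotomy. In CPM it stood at 340 and 326 against 216 and 225, with little spread in either group. Klf7 fell by 0.59 (SE 0.18, edgeR adjusted p = 0.0114), while per tube it stood at 0.37 in the other direction without passing (adjusted p = 0.195). It also missed the threshold with cyclic loess offsets (-0.14, adjusted p = 0.567), with library totals alone (0.148) and in DESeq2 (0.163). Klf7 overlaps the antisense gene Gm13748 and the lincRNA Gm26649 on the opposite strand, and the strand setting of the counting is not given in the sources used here. Neither of these neighbors has counts of its own here.

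Klf13, a close relative of Klf9 (chr7:63886351-63938915, minus strand, 2 exons), did not pass the test. It had 86 and 81 UMIs in sham against 127 and 126 after tenotomy, or 374 and 367 CPM against 330 and 255. The log2 fold change was -0.35 with a 95% interval from -0.73 to 0.03 (edgeR adjusted p = 0.125). Per tube it was higher (0.60, adjusted p = 0.021), and without tenotomy replicate 1 it was called lower (-0.53, adjusted p = 0.018). Both opposite-strand neighbors within its span, Gm27252 and E030018B13Rik, make its counts uncertain in the same way as those of Klf7. Neither has counts of its own here.

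Klf5, Klf3 and Klf10 were higher after tenotomy. Klf5, which promotes proliferation in epithelium and smooth muscle and takes part in myoblast differentiation (chr14:99298691-99315036, plus strand, 4 exons), had 45 and 31 UMIs in sham against 128 and 124 after tenotomy. The level was 196 and 140 CPM against 333 and 251, so that every tenotomy library was above every sham library on both scales. Klf5 rose by 0.78 (SE 0.22, 95% interval 0.31 to 1.24, edgeR adjusted p = 0.00867). Without sham replicate 2 the log2 fold change was 0.56 and missed the threshold (adjusted p = 0.104).

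Klf3, a repressor that works through CtBP (chr5:64803388-64832901, plus strand, 6 exons), had 10 and 29 UMIs in sham against 69 and 90 after tenotomy. In CPM the sham libraries differed 43.5 to 131, while the tenotomy libraries were close at 179 and 182. Klf3 rose by 1.06 (SE 0.31, 95% interval 0.40 to 1.72, edgeR adjusted p = 0.0111), a 2.08-fold higher fitted level. This rested on sham replicate 1: without it the log2 fold change was 0.46 (adjusted p = 0.24), and without sham replicate 2 it was 2.05 (adjusted p = 6.6e-06). Klf3 overlaps Gm20033 on the opposite strand, which was counted at 2 and 2 UMIs in sham and at 10 and 14 after tenotomy, and C230096K16Rik on the same strand, with 1 and 4 against 6 and 4. The counts of Klf3 are uncertain to that extent.

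Klf10, first described as a gene induced early by TGF-beta (chr15:38291463-38300706, minus strand, 4 exons), had 24 and 23 UMIs in sham against 57 and 81 after tenotomy. Its CPM was 104 and 104 against 148 and 164. Klf10 rose by 0.59 (SE 0.24, 95% interval 0.08 to 1.09), just inside the threshold (edgeR adjusted p = 0.057). The call was lost without sham replicate 1 (adjusted p = 0.158), without sham replicate 2 (0.155) and without tenotomy replicate 2 (0.251).

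Klf2 and Klf15 were the least abundant members. Klf2, which keeps endothelial cells and T cells quiescent and is a target of ERK5 and MEF2 in endothelium (chr8:72319033-72321656, plus strand, 3 exons), had 10 and 11 UMIs in sham against 28 and 26 after tenotomy. At 43.5 and 49.8 CPM against 72.8 and 52.7, the groups came close to each other without overlapping. The log2 fold change of 0.40 did not pass (95% interval -0.39 to 1.20, edgeR adjusted p = 0.407), and per tube Klf2 was higher (1.35, adjusted p = 0.011). Endothelial cells express Klf2 strongly, and the endothelial marker sums given above were higher alongside it. Of that list Cdh5 had 3 and 1 UMIs in sham against 14 and 11, Pecam1 had 4 and 2 against 11 and 7, and neither was tested. Tek, the only gene of that list tested, went the other way, at 43.5 and 54.4 CPM in sham against 13.0 and 22.3. It was called lower (log2 fold change -1.41, edgeR adjusted p = 0.0154), but Tek entered the test through the sham libraries alone. The Tek call was lost in DESeq2 and per tube. The part of endothelial cells in the Klf2 level was not tested. Klf15, a glucocorticoid-induced regulator of amino acid metabolism (chr6:90462576-90475238, plus strand, 4 exons), had only 6 and 1 UMIs in sham against 4 and 3 after tenotomy. It was not tested, and its libraries overlapped.

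The Klf2 start region is shown for its MEF2 site, which lies 118 bases before the RefSeq start. The stretch printed is chr8:72318812-72319032 on the plus strand (GRCm38.p6), 5′ to 3′, ending where the annotated gene begins, with the same motifs in capitals.
Klf2: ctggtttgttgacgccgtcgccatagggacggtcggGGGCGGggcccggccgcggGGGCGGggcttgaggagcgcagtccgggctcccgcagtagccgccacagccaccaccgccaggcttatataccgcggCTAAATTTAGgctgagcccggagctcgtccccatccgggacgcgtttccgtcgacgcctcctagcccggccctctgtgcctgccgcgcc
A MEF2 site was found in 3.19% of all promoters of this length and in none of the other 7 KLF regions examined.

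**Figure D2:**
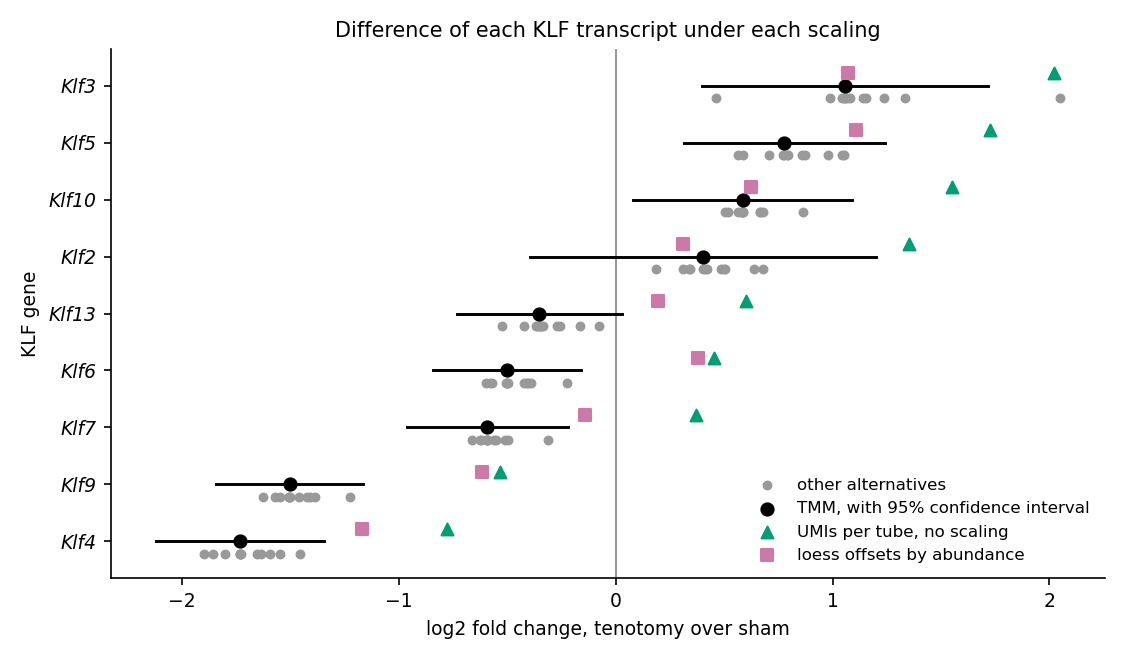
Log2 fold change of tenotomy over sham for the 9 KLF genes tested, with 95% intervals from the edgeR fit, beside the same change per tube (triangles), with cyclic loess offsets (squares) and under the other alternatives (gray). Klf4 and Klf9 lie below 0 under all 3 scalings and Klf3, Klf5 and Klf10 above 0, whereas Klf6, Klf7 and Klf13 change sides.

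The scaling decided where the middle of the family lay. The median of all genes was 0.05 with TMM and 1.01 per tube, since a tube of MuSCs from overloaded muscle gave more UMIs. Per tube 6 of the 9 KLF genes passed as higher and 2 as lower, where the shares of all genes were 62% and 4.58%. In UMIs, the groups were also separate for each of the 9, with 7 higher and 2 lower after tenotomy, against 72.7% and 7.9% of all genes. With cyclic loess offsets 4 were higher and 2 lower, against 21.3% and 21.5%. With library totals alone 3 were higher and 2 lower, against 37.3% and 18.7%. DESeq2's own test called only Klf4 and Klf9, both lower, where it called 14.5% of all genes lower and 10.5% higher.

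Ratios of UMIs between members within a library do not depend on a scaling that multiplies a whole library, though gene-specific offsets such as cyclic loess would change them, and the pairs given here were chosen after the values were seen. There were 2.87 and 4.81 Klf4 molecules for each Klf5 molecule in sham, and 0.633 and 0.653 after tenotomy, so that the order of these factors was exchanged. The ratio of Klf9 to Klf6 was 1.35 and 1.44 in sham and 0.590 and 0.806 after tenotomy, which is again a change of order in both libraries. Klf9 exceeded Klf10 by ratios of 11.2 and 10.6 in sham and of 2.47 and 2.62 after tenotomy, and Klf4 exceeded Klf2 by 12.9 and 13.5 against 2.89 and 3.12. A ratio shows unequal change and not which of its genes moved.

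**Figure D3:**
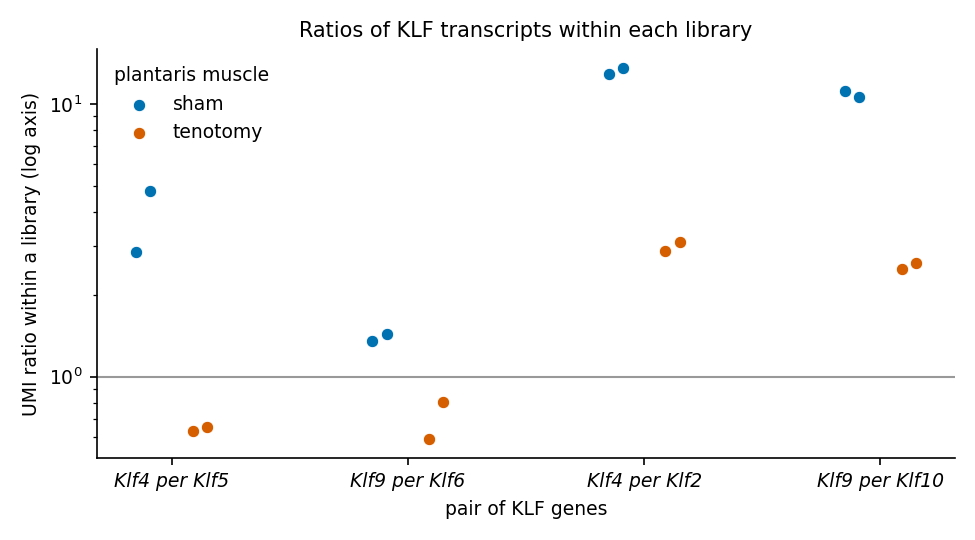
Ratio of UMIs between pairs of KLF genes in each of the 4 libraries, on a log axis. The Klf4 to Klf5 and Klf9 to Klf6 ratios lie above 1 in both sham libraries and below 1 in both tenotomy libraries.

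The order of levels across the family changed accordingly. CEL-Seq2 gives 1 end per transcript, so that its counts need no correction for length. In sham the order of mean CPM was Klf9, Klf6, Klf4, Klf13, Klf7, Klf5, Klf10, Klf3, Klf2 and Klf15, in which the libraries of neighbors overlapped only between Klf10 and Klf3 and between Klf3 and Klf2. After tenotomy it was Klf6, Klf9, Klf13, Klf5, Klf7, Klf4, Klf3, Klf10, Klf2 and Klf15, with overlap only between Klf13 and Klf5 and between Klf4 and Klf3. Klf4 thus went from rank 3 to rank 6, and Klf5 from rank 6 to rank 4.

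Among KLF genes outside the 10, Klf16 had 20 and 22 UMIs in sham against 18 and 18 after tenotomy and was lower (-1.17, SE 0.34, edgeR adjusted p = 0.01), but it did not pass in DESeq2 (adjusted p = 0.144) or per tube (-0.22, adjusted p = 0.645). Klf11, with 8 and 9 against 11 and 27, did not pass (adjusted p = 0.76). Of the Sp factors, which bind similar GC-rich sites, 3 were tested and 2 were lower, where 26.3% of all genes were. Sp4 had 40 and 36 UMIs in sham against 12 and 20 after tenotomy and fell by 2.20 (SE 0.30, adjusted p = 2.4e-05), a larger fitted fall than that of any KLF gene tested, and it was lower per tube too (-1.24). Sp1, with 73 and 88 against 75 and 118, fell by 0.71 (adjusted p = 0.0058), but per tube it stood at 0.26 in the other direction. With cyclic loess offsets Sp1 did not pass (-0.24, adjusted p = 0.327). Sp3, with 42 and 37 against 76 and 86, gave a log2 fold change of 0.08 (adjusted p = 0.79), but per tube it was higher (1.03, adjusted p = 0.0054). Per tube 1 of the 3 Sp genes was thus higher (62% of all genes) and 1 lower (4.58%).

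KLFs act through coactivators and corepressors, of which 11 of 12 listed were tested. Of these 3 were lower, 1 was higher and 7 did not pass, with a median log2 fold change of 0.00, where 26.3% of all genes were lower and 25.8% higher. The acetyltransferase genes Crebbp (110 and 122 UMIs in sham, 121 and 110 after tenotomy) and Ep300 (46 and 45 against 50 and 56) fell by 0.95 and 0.74 relative to other genes, and the corepressor Ncor1 fell by 0.50. Per tube 7 of the cofactors were higher and 4 did not pass, which is a share close to the 62% of all genes that were higher, and DESeq2 called 1 of the 11, as lower. Hdac2, the only cofactor called higher, rose by 0.46 (adjusted p = 0.073), a call lost in DESeq2 (0.406), without sham replicate 1 (0.198) or 2 (0.218) and without tenotomy replicate 2 (0.236). In DESeq2 Ep300 (adjusted p = 0.172) and Ncor1 (0.222) did not pass either. Ncor1 turned and was higher per tube (0.47, adjusted p = 0.079). It did not pass with library totals alone (adjusted p = 0.299) or with cyclic loess offsets (0.05, adjusted p = 0.843). Ctbp1, the partner of Klf3, gave 0.05 (adjusted p = 0.84). The ubiquitin ligase genes Fbxw7 and Wwp1, whose products mark KLF proteins for degradation, did not pass, at -0.37 and 0.72.

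The ERK5 kinase cascade acts through MEF2 factors on Klf2 and Klf4. Of its 7 listed genes, 5 were tested, 2 were higher, 1 lower and 2 did not pass, where 25.8% of all genes were higher and 26.3% lower. This count is a description, since Mef2c, 1 of the 2 that were higher, entered the test through the tenotomy libraries alone. Mef2a rose by 0.50 (45 and 41 UMIs in sham, 107 and 130 after tenotomy, edgeR adjusted p = 0.04), but did not pass in DESeq2 (adjusted p = 0.309) or without sham replicate 1 (0.122) or sham replicate 2 (0.188). Map3k3, an upstream kinase, had 22 and 46 against 36 and 50 and only just passed as lower (-0.63, adjusted p = 0.099), with groups that overlapped in CPM. It did not pass with DESeq2 size factors (adjusted p = 0.102), upper-quartile factors (0.159), limma-voom (0.165) or DESeq2 (0.365), and without sham replicate 2 its log2 fold change was 0.03. Per tube 4 of the 5 were higher (62% of all genes) and 1 did not pass. Mef2c was outside the naming rule and was chosen after its values were seen. Its direction was fixed by the filter. It had 9 and 2 UMIs against 57 and 63. The ERK5 gene itself, Mapk7, had 2 and 2 UMIs against 3 and 14 and was not tested.

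Klf10 and Klf6 are known to respond to TGF-beta. All 11 listed genes of this pathway were tested, with 1 higher, 3 lower and 7 not passing, and a median of -0.25. The share that was lower was close to the 26.3% of all genes. The receptor gene Tgfbr2 rose by 0.76 (18 and 25 UMIs in sham, 59 and 84 after tenotomy), a call lost in DESeq2 (adjusted p = 0.233), without sham replicate 1 (0.205) and without tenotomy replicate 2 (0.116). Tgfbr1 fell by 1.24 (49 and 38 against 28 and 44). Skil, an inhibitor that the pathway itself induces, fell by 1.12 (163 and 140 against 128 and 142). Tgfb2 and Smad4 did not pass, at -0.20 and -0.24. Per tube 5 of the 11 were higher, below the 62% of all genes, and 6 did not pass.

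Klf9 and Klf15 are induced by glucocorticoids. Of 9 listed glucocorticoid-responsive genes, 8 were lower and 1 did not pass, with a median of -1.01, and of all genes 26.3% were lower. With library totals alone 5 of the 9 were lower (18.7% of all genes), and with DESeq2 also 5 (14.5%). Errfi1, a feedback inhibitor of EGF receptor signaling, had 364 and 374 UMIs in sham against 177 and 162 after tenotomy and fell by 2.07 (SE 0.18, edgeR adjusted p = 3.0e-07). The transcription factor Cebpd fell by 1.64 (234 and 228 against 148 and 138), and Sgk1 and Ddit4 by 0.53 and 0.63. Sgk1 turned and was higher per tube (0.42, adjusted p = 0.038) and with cyclic loess offsets (0.36, adjusted p = 0.042), and Ddit4 did not pass in DESeq2 (adjusted p = 0.219), with library totals alone (0.174) or with cyclic loess offsets (0.190). Tsc22d3, a classic glucocorticoid target, was the gene that did not pass (-0.37, adjusted p = 0.23). Per tube 3 of the 9 were lower (4.58% of all genes), 1 higher (62%) and 5 did not pass, and the median was -0.05. With cyclic loess offsets 5 were lower (21.5% of all genes), 1 higher and 3 did not pass.

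Immediate early genes are switched on within minutes by stimuli, tissue dissociation among them, and several KLFs share this behavior. All 13 listed were lower, with a median of -1.63, and in the table as a whole 26.3% were. Junb (445 and 460 UMIs in sham, 261 and 277 after tenotomy), Egr1 (411 and 433 against 234 and 250) and Fos (366 and 348 against 213 and 232) fell by 1.70, 1.75 and 1.63, close to the size of the fall of Klf4 and Klf9. Jun fell by 0.53, but its UMIs per tube went from 277 and 265 to 304 and 430, and it was the gene called higher per tube (0.44) and with cyclic loess offsets (0.53). The list summed to 3393 and 3369 UMIs in sham and to 2017 and 2566 after tenotomy. Per tube 9 were lower (4.58% of all genes), 1 higher (62%) and 3 did not pass, and with cyclic loess offsets 11 were lower (21.5%), 1 higher (21.3%) and 1 did not pass. Its part in the fall of Klf4 and Klf9 was not tested.

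Of 12 genes listed as reported KLF targets, 8 were tested, with 6 higher, 1 lower and 1 not passing, and a median of 1.0, where 25.8% of all genes were higher. With DESeq2 4 were higher (10.5% of all genes), and without sham replicate 2 also 4. Of the 6, Lgals3, Npnt and Thbd had so few UMIs in sham that they entered the test through the tenotomy libraries alone, which fixed their direction, so that the count is a description. The cell cycle inhibitor Cdkn1a, which Klf4 and Klf6 activate in other cells, had 389 and 369 UMIs in sham against 397 and 509 after tenotomy and fell by 0.71 (SE 0.15, edgeR adjusted p = 0.00135). With cyclic loess offsets it was higher instead (0.47), and per tube 6 of the 8 genes were higher (62% of all genes) and 2 did not pass. Ccnd1, which drives entry into the cell cycle and is activated by Klf5 and repressed by Klf4 in other cells, rose by 0.67 (49 and 40 against 139 and 135), but did not pass in DESeq2 (adjusted p = 0.140) or without sham replicate 2 (0.104). The muscle creatine kinase gene Ckm rose by 0.80 (69 and 42 against 171 and 204), and did not pass without sham replicate 2 (adjusted p = 0.138). The galectin gene Lgals3 had 4 and 2 UMIs against 115 and 169. Macrophages also express it, and leukocyte markers were higher in the same libraries.

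**Figure D4:**
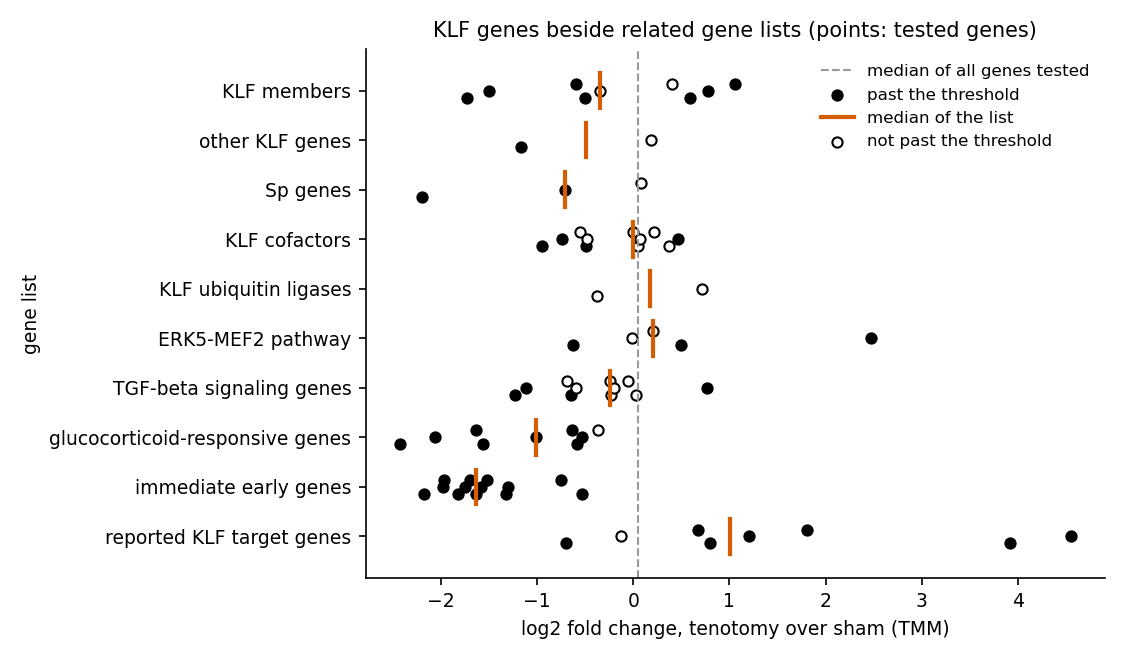
Log2 fold change of tenotomy over sham in the edgeR fit for each tested gene of the KLF family and the related lists, 1 point per gene, with called genes marked and the median of each list. The immediate early genes all lie below 0, the glucocorticoid-responsive genes have a median of -1.01, and the KLF members spread to both sides.

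The genes most like the most abundant members in their pattern over the 4 libraries were found by Euclidean distance of centered log2 CPM among 3915 tested genes with at least 100 UMIs. For Klf6 they included Akap13 (distance 0.0263) and Mrfap1 (0.0419). For Klf9 they were the collagen gene Col15a1 (0.0348), Msl2 (0.10) and Ppp1r15a (0.104), a stress-induced phosphatase subunit. Col15a1 had 151 and 136 UMIs in sham against 77 and 115 after tenotomy. With 4 libraries, such nearness is a description.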

How the data were processed

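MuSCs sorted by YFP from plantaris muscle were profiled by CEL-Seq2. The authors extracted barcodes and UMIs with UMI-tools (version 1.0.0), aligned reads to GRCm38 with HISAT2 (version 2.1.0), assigned them with featureCounts (version 1.6.4) and deposited unnormalized UMI counts for each gene in each library. The annotation release and strand setting are not given in the sources used here. The KLF members and gene lists were chosen with earlier results of these data known.

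Genes were filtered by filterByExpr (minimum count 10, minimum total 15), scaled by TMM and tested in edgeR (version 4.0.16, R version 4.3.3) by glmQLFit and glmQLFTest with surgery as the only term, the main test here. Benjamini-Hochberg adjustment ran over 7228 genes, with a threshold of 0.1, and the common biological coefficient of variation was 9.50%. A count of 3 corresponded to 13.6 CPM in the shallowest library and to 6.08 CPM in the deepest. The 2 sham libraries differed by more than sampling noise (chi-square per degree of freedom 1.31), as did the tenotomy libraries (1.50), so that each was counted once. With 2 against 2 libraries, an exact two-sided permutation test cannot go below p = 0.333, so none was run. Named were all KLF and Sp genes with a UMI, the 4 most abundant genes of each list and the 3 nearest genes of Klf6 and Klf9. Pax7, other defining markers, Mef2c, Ly6a, Mapk7, Ep300, Tgfbr1, Tgfbr2, Tsc22d3, Npnt, Thbd and the overlapping genes were named outside this rule after their values were seen. Alternatives were DESeq2 size factors, library totals, upper-quartile factors, UMIs per tube, cyclic loess offsets, DESeq2 (version 1.42.0), limma-voom (version 3.58.1), other filters, a threshold of 0.05, a replicate block and each library left out in turn. Gene positions are from GENCODE M21 (GRCm38), and promoters from RefSeq (GRCm38.p6). Proteins were not analysed here, and some genes that the naming rule covers are not reported here.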

Additional observations from a re-analysis of the deposited data

How the results depend on the processing

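Klf4 and Klf9 were lower and passed in all 15 alternatives, with log2 fold changes from -1.90 to -0.78 and from -1.63 to -0.53. Klf3, Klf5 and Klf10 stayed positive in all 15 and passed in 13, 13 and 10. Klf6 passed as lower in 10 and as higher in 2, Klf7 as lower in 11, Klf13 as lower in 2 and as higher in 1, and Klf2 as higher in 1. Reversals came from scaling: Klf6 gave 0.45 per tube and 0.38 with cyclic loess offsets, Klf7 0.37 per tube, and Klf13 0.60 per tube and 0.19 with cyclic loess offsets. The counts of KLF genes, 3 higher and 4 lower, became 6 and 2 per tube. The lower count was 2 with library totals, with cyclic loess offsets and with DESeq2. DESeq2 called 0 of the KLF genes higher (2 at an unadjusted p under 0.05, against 3 in limma-voom and edgeR). Leaving out 1 library gave 1 to 3 higher and 3 to 5 lower. It was 1 higher without sham replicate 1 and 1 without sham replicate 2. Over all genes, the 1868 higher and 1898 lower became 4481 and 331 per tube and 762 and 1049 with DESeq2, and 1464 to 1696 and 1570 to 1739 with 1 library left out. Apart from the scalings, whose construction sets the shift, the cause was not tested. Klf2 and Klf15 had the fewest UMIs of the members, and the depth left Klf15 untested.

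The replicate numbers are shared labels, and deviations of same-numbered libraries did not move together (r = -0.034 over 7228 genes, which are not independent replicates). With the replicate block 1806 genes were higher and 1864 lower, with 3 and 4 of the KLF genes.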

Other observations

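Some relatives of the KLF genes were counted too rarely to be tested. Klf12 had 2 and 3 UMIs in the sham libraries and 2 and 5 in the tenotomy libraries, Klf8 had 1 and 0 against 1 and 2, and Klf14 had 0 and 1 against 0 and 0. Sp2 had 4 and 4 UMIs against 11 and 19, and Sp5 had 0 and 0 against 0 and 2.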
